A study of Saccharomyces cerevisiae with 96 samples.

Results

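The 10 genes described here make and break down glycogen and trehalose, the storage carbohydrates of baker's yeast, *Saccharomyces cerevisiae*. They are GSY1 (YFR015C), GSY2 (YLR258W), GLC3 (YEL011W), GPH1 (YPR160W), GDB1 (YPR184W), PGM2 (YMR105C), TPS1 (YBR126C), TPS2 (YDR074W), TSL1 (YML100W) and NTH1 (YDR001C). They were chosen by name and function, and all 10 were found among the 7620 RNAs of the transcriptome table, of which 6598 are mRNAs, and among the 7647 RNAs of the capture tables. The study asked which RNAs carry NAD in place of a cap at the 5′ end, and how that changes when enzymes that remove NAD or act on faulty caps are missing. The 7 deletion strains were compared with their parent, BY4742 (MATα his3Δ1 leu2Δ0 lys2Δ0 ura3Δ0): npy1Δ (npy1::kanMX4), dxo1Δ (dxo1::natNT2), rai1Δ (rai1::hphNT1), the double mutants dxo1Δnpy1Δ, dxo1Δrai1Δ and rai1Δnpy1Δ, the triple mutant dxo1Δrai1Δnpy1Δ, and WT. All strains, WT included, carry the 4 auxotrophic alleles, were grown in YPD at 30 °C and were harvested in log phase at an OD590 of about 0.8. The mutants were made by recombination with PCR products, mating and sporulation, and the number of clones behind each is not given in the sources used here. Each strain had 3 transcriptome libraries, 3 capture libraries treated with ADP-ribosyl cyclase (+ADPRC) and 3 processed without the enzyme (−ADPRC), from biological triplicates. ADPRC swaps the nicotinamide of NAD for a clickable alcohol, so that NAD-capped RNA can be tagged with biotin and pulled down, and −ADPRC libraries hold what is carried along without the tag.

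Glycogen is a branched polymer of glucose. Phosphoglucomutase turns sugar phosphate towards UDP-glucose, glycogen synthase extends the chain, the branching enzyme adds branch points, and phosphorylase with the debranching enzyme releases the glucose again. Trehalose is a disaccharide that also protects proteins and membranes. It is made by a complex with a synthase, a phosphatase and regulatory subunits, and neutral trehalase splits it. In yeast both stores are built up when glucose runs low or under stress, and many of the genes carry control by the stress-responsive factors Msn2 and Msn4.

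A transcript level here is the number of reads over the 5′ region, a window around the translation start of the same length for every mRNA, on a reads-per-million scale over all mRNA 5′-region reads (RPM), so levels can be compared between genes. Transcriptome libraries held 1193668 to 2393366 mRNA 5′-region reads, +ADPRC libraries 29995 to 872995 and −ADPRC libraries 1162 to 78845. The deleted genes went with the labels: NPY1 had 0 to 1 reads in npy1Δ and 3 to 13 in the other strains lacking it, against 32 to 51 in WT, and RAI1 had 0 to 1 reads where it was deleted, against 7 to 15 in WT. DXO1 had 0 to 2 reads where deleted, but WT also had only 0, 0 and 5, so it checks little. The WT transcriptomes stood far from those of every deletion strain, with 70.1% to 77.4% of tested RNAs changed. The run names in the labels put WT and npy1Δ transcriptomes in the same sequencing run and the other 6 strains in another. The strain and the run therefore cannot be told apart in comparisons of those 6 strains with WT, while npy1Δ and WT were compared within a run. The same holds for the capture libraries, where WT and npy1Δ shared a run and the other 6 strains were spread over 3 further runs. SCR1, the RNA of the signal recognition particle, took 41.4% of counts in npy1Δ and 30.8% to 34.2% in the other deletion strains, against 48.2% in WT.

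All 10 genes were lower in all 7 deletion strains than in WT by edgeR's quasi-likelihood test, except that under scaling to total counts GSY1 (log2 change 0.36) and TPS2 (0.60) were not lower in npy1Δ. Lower RNAs made up 34.5% of all those tested in npy1Δ, 36.0% in dxo1Δ, 36.2% in rai1Δ, 36.7% in dxo1Δnpy1Δ, 35.5% in dxo1Δrai1Δ, 36.4% in rai1Δnpy1Δ and 36.8% in dxo1Δrai1Δnpy1Δ. Summed over the 10, the transcript level was 1647 ± 438 RPM in npy1Δ, 522 ± 82.5 to 692 ± 26.5 RPM in the other 6 strains, and 7750 ± 255 RPM in WT (SD, n = 3 each). In these libraries of whole cultures, fewer cells that express a gene and less RNA per cell cannot be told apart. Over the 5′ region, the npy1Δ strain lay between WT and the rest for 9 of the genes, with GDB1 the exception. How many of all mRNAs have this order was not counted. Because npy1Δ shared its run with WT, strain and run cannot be told apart in it.

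**Figure D1:**
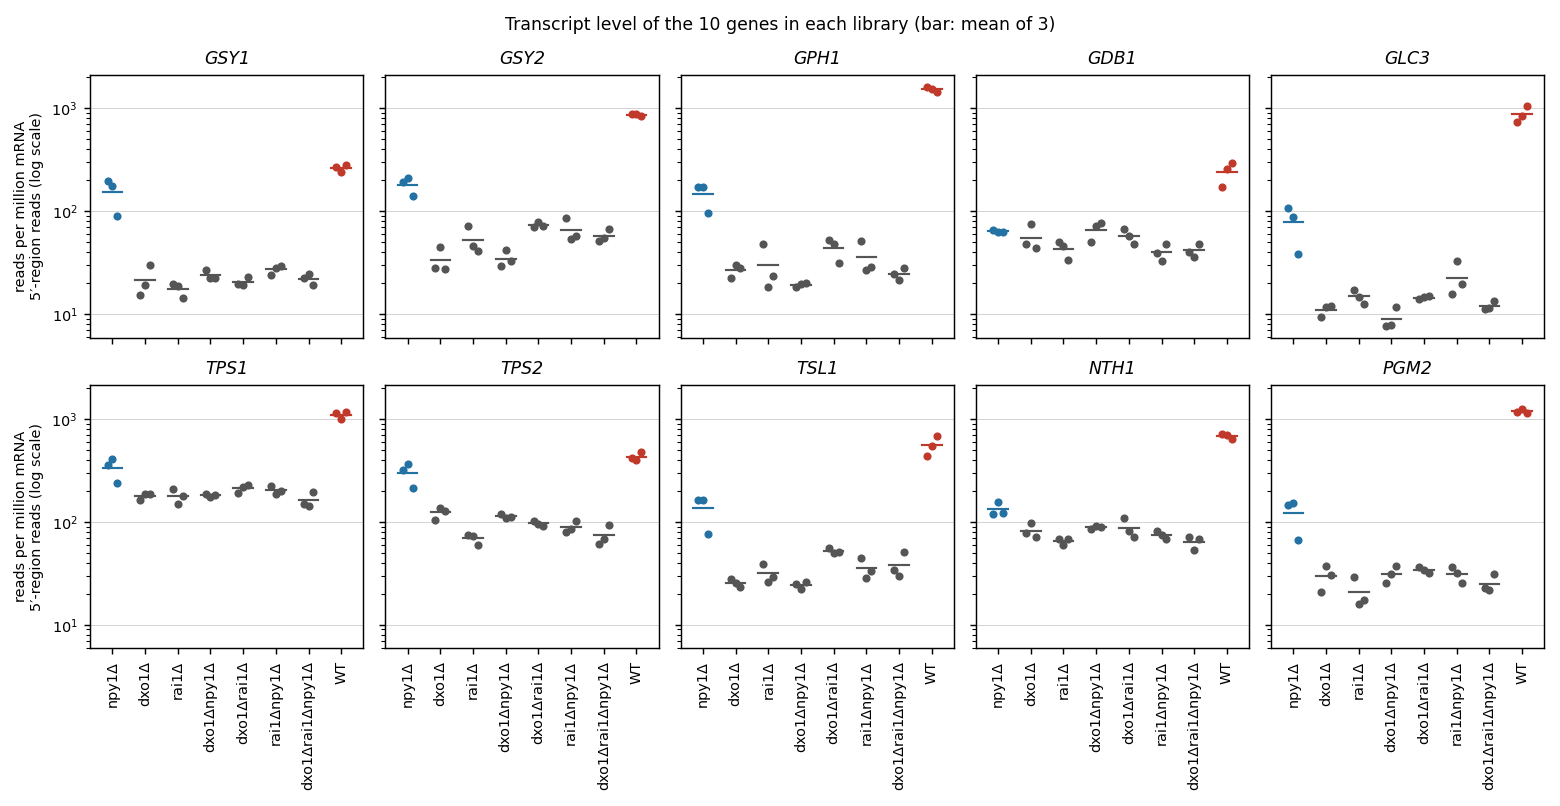
Transcript level of each of the 10 genes in every transcriptome library, in RPM on a log axis, with npy1Δ on the left, the other 6 deletion strains in the middle and WT on the right (points are libraries, bars the mean of 3). In each panel the 3 WT points lie above all 21 points of the deletion strains. In 9 panels, all but GDB1, the 3 npy1Δ points lie above the 18 of the later run, an order not counted over all mRNAs.

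The synthesis side of glycogen showed the widest range of effects in npy1Δ, while in the other 6 strains GPH1 and GDB1 of glycogen breakdown lay further apart. GSY2, the predominant glycogen synthase, had 194, 209 and 142 RPM in npy1Δ, 27.7 to 87.1 RPM (median 52.7) over the 18 libraries of the other 6 deletion strains, and 886, 873 and 853 RPM in WT. These 3 sets did not overlap, and WT was the tightest of them. GSY2 fell by 2.57 on the log2 scale in npy1Δ relative to WT (SE 0.16, adjusted p = 8.23e-11), a level 5.93-fold lower.

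GSY1, the second glycogen synthase gene, had 199, 175 and 90.7 RPM in npy1Δ, 14.4 to 29.9 RPM (median 22.4) in the other deletion strains, and 268, 242 and 283 RPM in WT. Replicate 3 of npy1Δ was well below its 2 companions, and even the highest npy1Δ library stayed below the lowest of WT. GSY1 was 2.10-fold lower in npy1Δ than in WT, with a log2 change of -1.07 (SE 0.21, adjusted p = 1.56e-04), but under scaling to total counts, SCR1 included, its log2 change was 0.36 (adjusted p = 0.0862). In the other 6 strains the log2 change lay between -4.22 in rai1Δ and -3.68 in rai1Δnpy1Δ.

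GLC3, the branching enzyme, had 108, 89.1 and 38.6 RPM in npy1Δ, 7.70 to 32.8 RPM (median 13.1) in the other deletion strains, and 743, 841 and 1056 RPM in WT. Replicate 3 was again the lowest of npy1Δ, and all 3 lay far under WT. Its log2 change in npy1Δ was -3.77 (SE 0.26, adjusted p = 2.55e-10), 13.7-fold lower, the largest drop among the 10 genes in that strain. In dxo1Δnpy1Δ it was -7.02, or 130-fold lower than in WT, the largest change of any of the 10 genes in any strain.

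PGM2, the main phosphoglucomutase isoform, had 147, 151 and 66.2 RPM in npy1Δ, 15.9 to 37.3 RPM (median 30.7) in the other deletion strains, and 1156, 1256 and 1152 RPM in WT. All WT libraries were more than 7 times the highest npy1Δ library, at a ratio of 7.65. PGM2 was 12.1-fold lower in npy1Δ than in WT (log2 change -3.59, SE 0.23), and 71.1-fold lower in rai1Δ, the strain with the largest change for this gene.

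The genes of glycogen breakdown fell as well, GPH1 far more than GDB1 when read over the 5′ region. GPH1, glycogen phosphorylase, had 172, 172 and 96.5 RPM in npy1Δ, 18.3 to 52.3 RPM (median 27.5) in the other deletion strains, and 1633, 1552 and 1430 RPM in WT. By reads over the 5′ region it was the most abundant of the 10 transcripts in WT and ranked in the middle of them in npy1Δ. Its log2 change was -3.69 in npy1Δ (SE 0.21, adjusted p = 1.69e-11) and between -6.72 in dxo1Δnpy1Δ and -5.52 in dxo1Δrai1Δ in the other strains.

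GDB1, the debranching enzyme, had 65.8, 63.3 and 62.4 RPM in npy1Δ, 32.8 to 77.1 RPM (median 48.3) in the other deletion strains, and 173, 256 and 296 RPM in WT. Here npy1Δ fell inside the range of the later run, and the mean of dxo1Δnpy1Δ stood above that of npy1Δ. The log2 change of GDB1 was -2.22 in npy1Δ (SE 0.17, adjusted p = 1.40e-09) and -2.99 to -2.29 in the other strains. Counted over the whole coding sequence, the same gene changed by -4.99 in npy1Δ and by -5.54 to -5.24 in the others. These drops are larger than over the 5′ window, and that of npy1Δ was then the smallest.

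In the trehalose branch, TPS1 and TPS2 kept more of their WT level than TSL1 and NTH1 did. TPS1, trehalose-phosphate synthase, had 356, 409 and 239 RPM in npy1Δ, 142 to 228 RPM (median 186) in the other deletion strains, and 1135, 992 and 1161 RPM in WT. It was the most abundant of the 10 in every deletion strain, by the mean level. TPS1 was 4.06-fold lower in npy1Δ than in WT (log2 change -2.02, SE 0.18), and the other 6 strains lay within -3.07 to -2.76, the narrowest range among the 10 genes.

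TPS2, the trehalose-phosphate phosphatase, had 317, 364 and 212 RPM in npy1Δ, 59.9 to 137 RPM (median 95.1) in the other deletion strains, and 416, 398 and 479 RPM in WT. The lowest WT library exceeded the highest npy1Δ library by a ratio of only 1.09. TPS2 had the smallest drop in npy1Δ, 1.79-fold lower than in WT (log2 change -0.84, SE 0.17, adjusted p = 2.40e-04), and its sign turned under total-count scaling, where the log2 change was 0.60 (adjusted p = 0.00247).

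TSL1, the large regulatory subunit of the synthase complex, had 164, 165 and 76.5 RPM in npy1Δ, 22.3 to 55.8 RPM (median 29.6) in the other deletion strains, and 436, 547 and 687 RPM in WT. NTH1, the neutral trehalase that splits trehalose in the cytosol, had 119, 155 and 122 RPM in npy1Δ, 52.8 to 108 RPM (median 73.4) in the other deletion strains, and 708, 703 and 639 RPM in WT. Both genes had 3 sets without overlap, with the later run lowest. In npy1Δ, TSL1 was 5.06-fold lower than in WT (log2 change -2.34, SE 0.23) and NTH1 was 6.44-fold lower (log2 change -2.69, SE 0.15).

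A drop of at least 4-fold was seen for 8 genes in npy1Δ, all but GSY1 and TPS2, against 12.5% of all RNAs. In the other strains all 10 genes passed that limit, against 14.1% of RNAs in dxo1Δ, 14.5% in rai1Δ, 14.7% in dxo1Δnpy1Δ, 13.5% in dxo1Δrai1Δ, 13.9% in rai1Δnpy1Δ and 14.5% in dxo1Δrai1Δnpy1Δ. Every library of every deletion strain lay below every WT library for all 10 genes. The same held for 28.2% of mRNAs in npy1Δ, 28.0% in dxo1Δ, 30.7% in rai1Δ, 28.5% in dxo1Δnpy1Δ, 28.0% in dxo1Δrai1Δ, 28.8% in rai1Δnpy1Δ and 31.0% in dxo1Δrai1Δnpy1Δ. The median log2 change of the 10 was -2.45 in npy1Δ (0.03 over all RNAs) and -4.43 to -3.88 in the other 6 strains (0.04 to 0.14 over all RNAs). The 7 comparisons share the same 3 WT libraries, so they are not independent of one another.

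**Figure D2:**
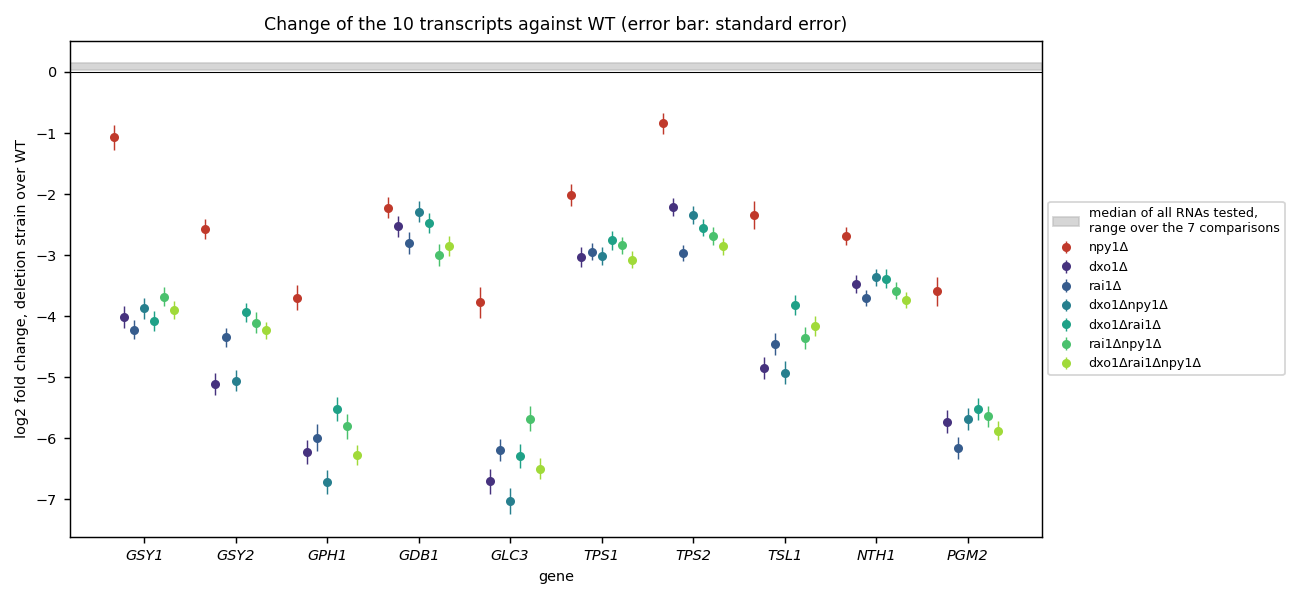
Log2 fold change of each gene in the 7 deletion strains relative to WT, with bars of 1 SE from the fit, and a grey band at the median of all RNAs tested. All 70 points lie below 0, and the npy1Δ points, between -3.77 and -0.84, are the closest to 0 for every gene. With total-count scaling GSY1 and TPS2 in npy1Δ moved above 0 (0.36 and 0.60).

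Of 21 other genes of glycogen and trehalose metabolism and its control, 18 fell in npy1Δ and in dxo1Δrai1Δ and 19 in each of the other 5 strains, with a median log2 change of -1.91 in npy1Δ and -2.10 to -1.60 in the others. Targeting subunits of the phosphatase that activates glycogen synthase were among the largest drops in npy1Δ, with GAC1 at -5.04, PIG2 at -4.89 and GIP2 at -4.71. SGA1, a glucoamylase of sporulating cells, stood at -4.79, and DCS2, a stress-induced regulator related to the scavenger decapping enzyme, at -5.09.

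Within that list the trehalases ATH1 and NTH2 fell by 3.07 and 2.42 on the log2 scale in npy1Δ, and GLG1, which primes the glycogen chain, fell by 2.09. UGP1, which makes UDP-glucose, fell by 0.53. Not all of the list fell. TPS3, the other regulatory subunit of the trehalose complex, had -0.05 in npy1Δ and did not pass there, and the kinase gene PHO85 passed in no strain. PGM1, the minor phosphoglucomutase, rose in all 7 strains: it had 89.3 ± 1.89 RPM in npy1Δ and 8.73 ± 2.08 RPM in WT (SD, n = 3 each), 8.33-fold higher by the fit, and log2 changes of 2.72 to 3.03 in the other strains. PGM1 and PGM2 moved in opposite directions in every strain. Reads that PGM1 and PGM2, GSY1 and GSY2, NTH1 and NTH2, or TSL1 and TPS3 might share were not separated here, and their part was not tested.

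Lists of other genes that respond to glucose and stress were far higher in WT, although all cultures are described as log phase. The lists were chosen with earlier results known, so their counts are no independent evidence, and 34.5% to 36.8% of all RNAs were lower in the same comparisons. All 12 glucose-repressed genes were lower in each of the 7 strains, with a summed level of 468 ± 38.4 RPM in npy1Δ and 9451 ± 299 RPM in WT. All 12 general stress genes were also lower in each, summing to 1017 ± 167 RPM in npy1Δ and 49866 ± 1050 RPM in WT (SD, n = 3 each). PCK1, a gluconeogenic gene that cells shut off on glucose, had 0 to 3.22 RPM in npy1Δ and 3301 to 3905 RPM in WT, and the heat shock gene HSP26 had 88.6 to 116 RPM in npy1Δ and 27863 to 29869 RPM in WT. The growth state of the cultures was not measured in these files, and its part in any change of the 10 genes relative to WT was not tested.

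Strains that differ by a single deletion and were sequenced in the same run could be compared without WT. Removing NPY1 changed none of the 10 genes in dxo1Δnpy1Δ relative to dxo1Δ by edgeR's quasi-likelihood test, with log2 differences of -0.48 to 0.25, 1 gene at an unadjusted p below 0.05 and 0 by DESeq2. The same held for rai1Δnpy1Δ relative to rai1Δ, with 0 genes by edgeR, differences of -0.16 to 0.57, 3 genes at an unadjusted p below 0.05 and 0 by DESeq2. Of all RNAs tested, 0.0289% and 0.0574% changed in these comparisons.

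In the background without DXO1 and RAI1, NPY1 removal lowered a single member, GPH1. It had 24.8, 21.6 and 27.9 RPM in dxo1Δrai1Δnpy1Δ, against 52.3, 48.5 and 31.2 RPM in dxo1Δrai1Δ. The libraries did not overlap, although replicate 3 of dxo1Δrai1Δ came near the triple mutant, and the share of all mRNAs without overlap was not counted. The log2 difference was -0.74 (SE 0.19, adjusted p = 0.0489), where 0.402% of all RNAs were lower. The call was lost without dxo1Δrai1Δ replicate 1 (adjusted p = 0.22) or 2 (0.26), without triple-mutant replicate 1 (0.19) or 2 (0.27), and in DESeq2.

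DXO1 removal gave no call among the 10 genes in either background. In dxo1Δrai1Δ relative to rai1Δ the differences ran from -0.11 to 0.63 on the log2 scale, with 0 genes called by edgeR and by DESeq2, 4 at an unadjusted p below 0.05, and 0.718% of all RNAs changed. Without rai1Δ replicate 1, 4 genes were called higher. In dxo1Δrai1Δnpy1Δ relative to rai1Δnpy1Δ they ran from -0.85 to 0.17, with 0 genes by edgeR and DESeq2, 2 at an unadjusted p below 0.05, 0.115% of RNAs changed, and 1 gene called lower without rai1Δnpy1Δ replicate 1.

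RAI1 removal moved more of them, GSY2 and TSL1 in the same direction in both backgrounds. More of all RNAs changed as well, 15.5% in dxo1Δrai1Δ relative to dxo1Δ and 28.6% in dxo1Δrai1Δnpy1Δ relative to dxo1Δnpy1Δ. In the comparisons that removed NPY1 or DXO1 within a run, at most 0.948% changed. GSY2 had 70.4, 79.4 and 72.5 RPM in dxo1Δrai1Δ and 28.0, 44.9 and 27.7 RPM in dxo1Δ. TSL1 had 55.8, 49.3 and 50.8 RPM in dxo1Δrai1Δ and 28.0, 25.5 and 23.5 RPM in dxo1Δ. For both genes every dxo1Δrai1Δ library was above every dxo1Δ library, an order not counted over all mRNAs. GSY2 was 2.20-fold higher (log2 difference 1.14, SE 0.18, adjusted p = 3.79e-05) and TSL1 2.01-fold higher (1.00, SE 0.18, adjusted p = 2.15e-04), where 8.35% of all RNAs were higher.

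GPH1 rose too in that comparison, 1.60-fold (log2 difference 0.68, SE 0.20, adjusted p = 0.0194), from libraries of 52.3, 48.5 and 31.2 RPM in dxo1Δrai1Δ and 22.6, 30.4 and 28.5 RPM in dxo1Δ. The lowest dxo1Δrai1Δ library was close to the highest of dxo1Δ. The call did not hold without dxo1Δ replicate 1 (adjusted p = 0.10), without dxo1Δrai1Δ replicate 1 (0.058) or 2 (0.13), or in DESeq2 (0.094). With reads over the coding sequence 6 genes were higher, where 20.7% of all RNAs were higher too. The log2 differences were 1.67 for GSY2, 1.37 for TSL1, 1.36 for GPH1, 0.71 for GLC3, 0.35 for PGM2 and 0.32 for GDB1.

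In dxo1Δrai1Δnpy1Δ relative to dxo1Δnpy1Δ, GSY2 had 51.2, 54.7 and 67.2 RPM in the triple mutant and 29.5, 41.9 and 32.7 RPM in the double. TSL1 had 34.3, 29.9 and 50.8 RPM in the triple mutant and 25.0, 22.3 and 26.0 RPM in the double. Neither gene overlapped between the strains, though the gap was narrower than between dxo1Δrai1Δ and dxo1Δ. The share of all mRNAs without overlap was not counted here. GSY2 was higher by 0.79 on the log2 scale (SE 0.18, adjusted p = 0.00185) and TSL1 by 0.73 (SE 0.21, adjusted p = 0.0123), where 14.2% of all RNAs were higher. TSL1 was no longer called without triple-mutant replicate 3 (adjusted p = 0.16), without dxo1Δnpy1Δ replicate 2 (0.065) or in DESeq2 (0.065).

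GDB1, TPS2 and NTH1 were lower in the same comparison, where 14.4% of all RNAs were lower. GDB1 had 40.5, 36.2 and 48.3 RPM in the triple mutant and 50.7, 71.4 and 77.1 RPM in dxo1Δnpy1Δ. TPS2 had 60.2, 67.4 and 94.1 RPM in the triple mutant and 118, 109 and 112 RPM in dxo1Δnpy1Δ. NTH1 had 70.9, 52.8 and 68.2 RPM in the triple mutant and 86.0, 90.4 and 88.8 RPM in dxo1Δnpy1Δ. No library of the triple mutant reached the lowest of the double for these genes, an order not counted over all mRNAs. The log2 differences were -0.59 for GDB1 (SE 0.18, adjusted p = 0.0137), -0.55 for TPS2 (SE 0.16, adjusted p = 0.0106) and -0.40 for NTH1 (SE 0.14, adjusted p = 0.0388).

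These lower calls were fragile. The NTH1 call was lost whichever library was left out (adjusted p between 0.051 and 0.20), GDB1 was lost without dxo1Δnpy1Δ replicate 2 (0.068) or 3 (0.056) or triple-mutant replicate 1 (0.052) or 2 (0.070), and TPS2 without triple-mutant replicate 1 (0.084) or 2 (0.055). None of the 3 was called from coding-sequence reads, where GDB1 had a log2 difference of 0.04. Of the 21 other glycogen and trehalose genes, 5 were higher in dxo1Δrai1Δ than in dxo1Δ, where 8.35% of all RNAs were higher. In the triple mutant relative to dxo1Δnpy1Δ 3 were higher and 2 lower, where 14.2% of all RNAs were higher and 14.4% lower. In the comparisons that removed NPY1 or DXO1 within a run 0 changed by edgeR, where at most 0.948% of all RNAs changed.

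**Figure D3:**
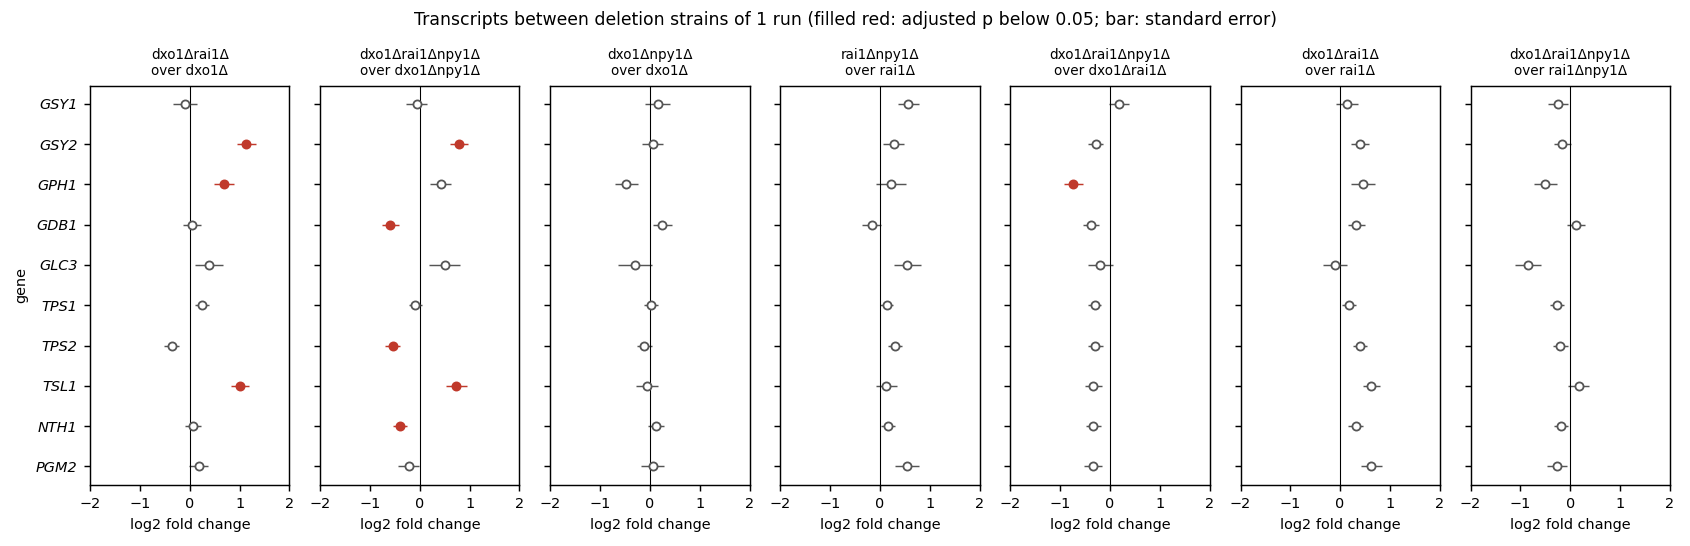
Log2 difference of each gene between deletion strains that differ by a single deletion and share a run (7 comparisons, strain with the extra deletion relative to the strain without it), with bars of 1 SE and filled red points at an adjusted p below 0.05. Of the red points, GSY2 and TSL1 lie above 0 in both RAI1 comparisons, by 0.73 to 1.14, and the NPY1 panels hold 1 red point, GPH1 at -0.74.

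The remaining comparisons add a deletion to npy1Δ but cross the runs, so the deletion and the run cannot be told apart. In dxo1Δnpy1Δ relative to npy1Δ, 9 genes were lower, all but GDB1 at -0.02, where 14.2% of all RNAs were lower. The largest differences were -3.22 for GLC3, -2.99 for GPH1 and -2.76 for GSY1. In rai1Δnpy1Δ relative to npy1Δ all 10 were lower, from -2.60 for GSY1 to -0.75 for GDB1, where 18.6% of all RNAs were lower.

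Levels of the 10 genes varied together over the whole set, and less so within a run. Over the 24 libraries, pairs of the 10 correlated at a Pearson r of 0.76 to 0.99 (median 0.93) in log2 level, the lowest being GSY1 with GDB1. Over the 18 libraries of the later run alone the same pairs ranged from -0.40 for GDB1 with GLC3 to 0.83 for GSY2 with TSL1, with a median of 0.32. These points share runs and scaling, so the values are a description.

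Genes outside the list that followed it most closely were looked for among mRNAs with a mean count above 100, 2224 of them over 24 libraries and 2158 over the 21 of deletion strains. Over the 24 libraries the highest r to the mean of the 10 belonged to STF2 (0.992), TPK2 (0.989), SDS24 (0.987), TDH1 (0.987) and RGI1 (0.986). Over the 21 libraries of deletion strains they were IRC9 (0.963), KTR4 (0.954), STF2 (0.950), TDH1 (0.932) and PNC1 (0.927). STF2 and TDH1 appear in both sets. GDB1 itself reached only 0.52 with the mean of the 10 over those 21 libraries, against 0.86 to 0.98 for the other 9. Each of the 10 is part of that mean, which raises its r, so these values do not compare with those of outside genes.

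NAD capture put most of the 10 transcripts among the enriched RNAs in WT and npy1Δ. Enrichment was called by the limits the study used, a log2 fold change above 0.5 between +ADPRC and −ADPRC libraries, a mean normalised count above 1 and an unadjusted p below 0.05. In npy1Δ 7 of the 10 passed, where 50.4% of the RNAs tested did, and in WT 7 of the 10 passed, where 47.0% did. Both sets held GSY2, GPH1, TPS1, TPS2, TSL1 and PGM2, with GSY1 added in npy1Δ and GLC3 in WT. Each of them also had an adjusted p below 0.05. The median log2 enrichment over all RNAs was 2.67 in npy1Δ and 4.21 in WT, which is the level to read single genes against. This scale includes all RNAs of a library: among mRNA reads alone, the 10 genes together were not higher with ADPRC in 3 of the strains (219 ± 38.8 RPM with and 867 ± 712 without in rai1Δ, for example). UGP1, outside the list, was enriched in all 8 strains, at log2 5.62 in npy1Δ and 7.63 in WT.

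PGM2 was captured in both strains without overlap between the sets, which was not counted over all RNAs. In npy1Δ PGM2 had 122, 61 and 74 reads with ADPRC and 5, 5 and 2 without, an 11.2-fold ratio of pooled reads (exact 95% interval 6.30 to 21.9, counting error only) and a log2 enrichment of 3.46. In WT it had 311, 92 and 59 reads with ADPRC and 3, 0 and 0 without, so that all control reads came from a single library. The log2 enrichment in WT was 6.43 (SE 0.78, adjusted p = 9.57e-15), and the pooled reads, scaled to TMM library sizes, gave a 99.9-fold ratio (34.0 to 486).

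GSY2 was captured in both strains with almost nothing in the controls. In npy1Δ it had 71, 24 and 55 reads with ADPRC and 0, 1 and 0 without, and in WT it had 217, 61 and 19 reads with ADPRC and 0, 2 and 0 without. The +ADPRC libraries were above all −ADPRC libraries in each strain, again not counted over all RNAs. The pooled ratio in npy1Δ was 78.4-fold (13.9 to 3116), where the single control read leaves the upper end wide, and in WT 96.3-fold (26.4 to 799).

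GLC3 differed between these strains in its control reads as well. It had 31, 19 and 14 reads with ADPRC and 1, 14 and 0 without in npy1Δ, and 126, 36 and 20 with ADPRC and 0, 0 and 0 without in WT. In npy1Δ replicate 2 of the controls held nearly all the background reads, while WT controls had none. The ratio was 2.23-fold in npy1Δ (1.26 to 4.21), not called, and at least 39.3-fold in WT with a floor of 3 reads over the controls.

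GPH1, TPS1, TPS2 and TSL1 were captured at a scale close to each other. In npy1Δ the pooled ratios were 13.2-fold for GPH1 (6.57 to 31.0), 9.58-fold for TPS1 (5.71 to 17.4), 10.3-fold for TPS2 (5.93 to 19.7) and 14.4-fold for TSL1 (6.03 to 45.1). In WT they were 38.6-fold for GPH1 (14.9 to 143), 48.9-fold for TPS1 (16.5 to 239), 33.4-fold for TPS2 (12.8 to 124) and 47.3-fold for TSL1 (12.9 to 395). WT +ADPRC replicate 3, the shallowest, had only 1 read of TPS2 and 6 of TSL1, against 164 and 108 in replicate 1.

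NTH1 and GDB1 were not enriched in either strain. NTH1, with 683 ± 38.2 RPM in the WT transcriptome, had 4, 0 and 0 reads in WT +ADPRC libraries and 0, 7 and 0 in the controls. GDB1 had 4, 3 and 0 reads with ADPRC and 0, 15 and 0 without in npy1Δ, and 26, 2 and 1 with ADPRC and 3, 4 and 0 without in WT. For both genes a single library held most of the reads of a group. GSY1 was enriched in npy1Δ, with 82, 22 and 33 reads with ADPRC and 0, 1 and 5 without (log2 enrichment 3.45, adjusted p = 0.00669), a call lost without +ADPRC replicate 1 (adjusted p = 0.14). In WT it had 19, 13 and 3 reads with ADPRC and 1, 6 and 0 without, and was not called.

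**Figure D4:**
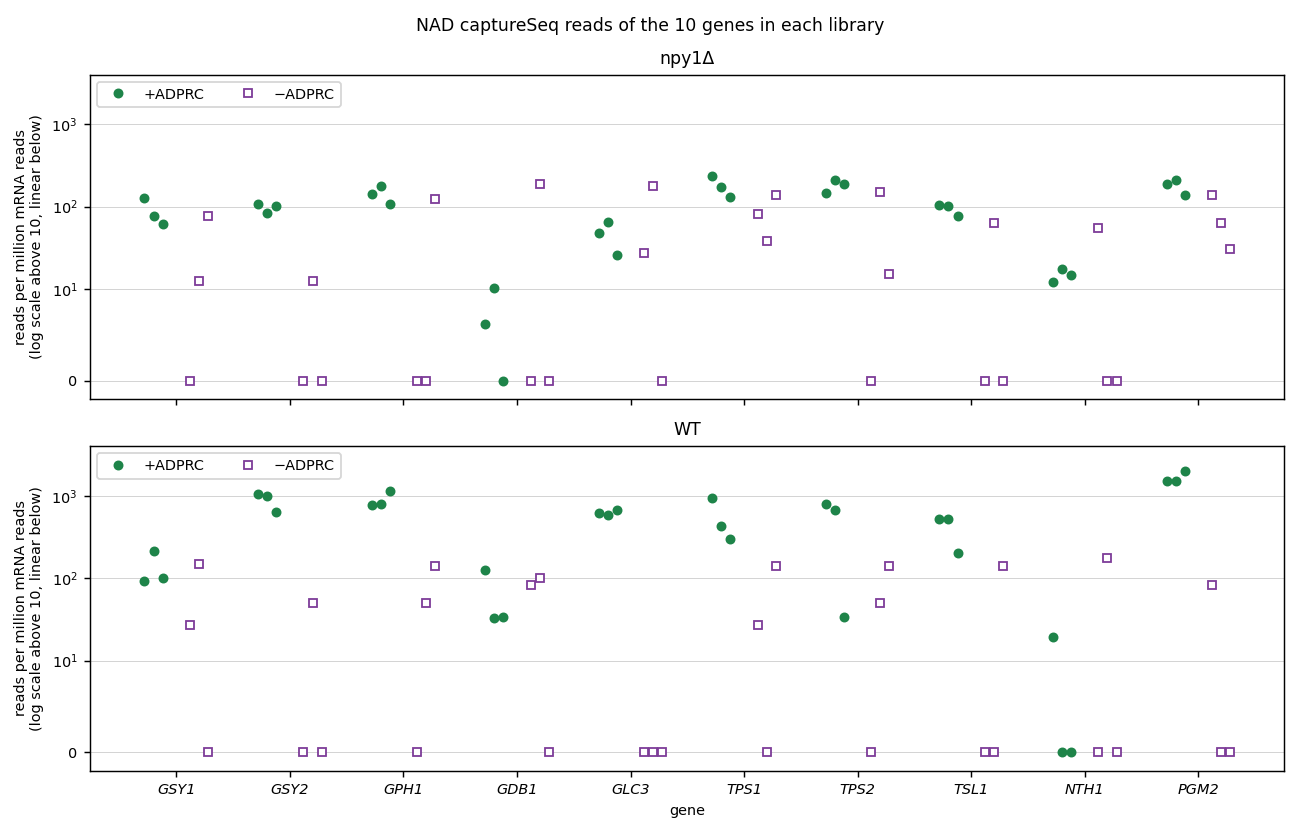
Captured level of each gene in RPM over mRNA reads in npy1Δ and WT, with +ADPRC libraries left of −ADPRC libraries and a point for each library (axis logarithmic above 10 and linear below). In WT the +ADPRC points of PGM2 (1501 to 1967), GSY2 (633 to 1060) and GLC3 (588 to 667) stand clear of the controls, while those of NTH1 (0 to 19.5) do not.

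In the other 6 strains the transcripts were scarce and so were the captured reads. Summed over the 10 genes, +ADPRC libraries held 102 reads in dxo1Δ, 196 in rai1Δ, 207 in dxo1Δnpy1Δ, 362 in dxo1Δrai1Δ, 54 in rai1Δnpy1Δ and 342 in dxo1Δrai1Δnpy1Δ, against 1825 in WT. Many of the 10 genes fell under the minimum for testing there. Enriched were 2 of 2 tested in dxo1Δ (87.3% of all RNAs tested), 2 of 6 in rai1Δ (61.2%), 1 of 4 in dxo1Δnpy1Δ (61.5%), 3 of 7 in dxo1Δrai1Δ (70.5%), 2 of 2 in rai1Δnpy1Δ (83.2%) and 4 of 9 in dxo1Δrai1Δnpy1Δ (56.5%).

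TPS1, the most abundant of the 10 in those strains, was enriched in all 8 strains by the limits of the study, though with the replicate number as a block no gene of the 10 was called in rai1Δ, dxo1Δnpy1Δ or dxo1Δrai1Δnpy1Δ. It had 14, 20 and 22 reads with ADPRC and 0, 1 and 0 without in dxo1Δ, 30.7-fold by pooled reads (5.28 to 1232), and 60, 38 and 53 with ADPRC and 3, 0 and 0 without in dxo1Δrai1Δ, 9.59-fold (3.22 to 47.0). In rai1Δnpy1Δ it had 8, 10 and 7 reads with ADPRC and none without, at least 5.95-fold. The lowest ratio was in rai1Δ, 4.32-fold (1.79 to 13.6), with 82, 15 and 4 reads with ADPRC and 0, 3 and 2 without, where the call was lost without +ADPRC replicate 1 (adjusted p = 0.11) or 2 (0.91). Relative to mRNA reads alone, with the 3 libraries pooled, TPS1 in rai1Δ had 127 RPM with ADPRC (exact 95% binomial interval 103 to 154) and 204 RPM without (66.2 to 475), and in dxo1Δrai1Δ 109 RPM with ADPRC (92.0 to 127) and 113 RPM without (23.3 to 330), so it was not higher with ADPRC on that scale in either strain. The log2 enrichment of TPS1 was 4.61 in dxo1Δ, 1.93 in rai1Δ, 2.88 in dxo1Δnpy1Δ, 3.21 in dxo1Δrai1Δ and 2.42 in dxo1Δrai1Δnpy1Δ. These values were below the median over all RNAs in each (5.28, 4.13, 4.02, 4.44 and 2.82). In npy1Δ (3.16) and WT (4.86) TPS1 was above the median. The rai1Δnpy1Δ strain, with no control read of TPS1, is left out of this comparison, and its log2 enrichment was 5.65 to 7.23 over the alternative settings.

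TPS2 passed in dxo1Δ, dxo1Δrai1Δ and dxo1Δrai1Δnpy1Δ, TSL1 in dxo1Δrai1Δ and the triple mutant, GPH1 in rai1Δ and the triple mutant, and GSY2 in rai1Δnpy1Δ, where a single gene was called without +ADPRC replicate 1 or 2. TSL1 in dxo1Δrai1Δ had 32, 10 and 20 reads with ADPRC and none without, at least 3.94-fold. In the triple mutant GSY1 was depleted, with 0, 2 and 6 reads with ADPRC and 1, 0 and 8 without, where 8.68% of all RNAs were depleted. That call rested on a single control library and was lost without −ADPRC replicate 3 (adjusted p = 0.99). Also in the triple mutant, TSL1, GPH1 and TPS2 were not called without −ADPRC replicate 2 (adjusted p = 0.14, 0.17 and 0.10), and GPH1 and TSL1 not without −ADPRC replicate 1 (0.16 and 0.12). In rai1Δ, GPH1 was lost without −ADPRC replicate 2 (0.20).

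The difference in enrichment between a deletion strain and WT was tested itself. In npy1Δ it was lower for GLC3, by 8.73 on the log2 scale (SE 2.03, adjusted p = 8.66e-04), and for PGM2, by 4.00 (SE 1.21, adjusted p = 0.0169), where 7.1% of all RNAs were lower and the median over all RNAs was -1.47. Neither call held in DESeq2 (adjusted p = 0.097 for GLC3 and 0.31 for PGM2), with RLE size factors (0.16 and 0.66) or with the replicate block (0.11 and 0.062), and with RLE factors the median over all RNAs was 0.44 and 0.147% were lower. In rai1Δ 3 genes were lower (9.93% of all RNAs) and in dxo1Δrai1Δnpy1Δ 2 (5.33%), in comparisons that cross runs, so that strain and run cannot be told apart. No gene was called by edgeR in the other 4 strains, where 0, 1, 1 and 0 genes had an unadjusted p below 0.05 in dxo1Δ, dxo1Δnpy1Δ, dxo1Δrai1Δ and rai1Δnpy1Δ, and DESeq2 called 1 gene in dxo1Δ and 0 in the others. Of all RNAs, 8.06% changed in dxo1Δ, 9.07% in dxo1Δnpy1Δ, 5.4% in dxo1Δrai1Δ and 11.5% in rai1Δnpy1Δ. The GLC3 difference was lost without npy1Δ −ADPRC replicate 2 (adjusted p = 0.31), the library with 14 of its 15 control reads. PGM2 was lost without npy1Δ −ADPRC replicate 1 (0.082), WT −ADPRC replicate 2 (0.10) or WT +ADPRC replicate 1 (0.13).

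Captured reads could also be set against WT among mRNA reads of the +ADPRC libraries. Summed over the 10 genes they made up 1032 ± 159 RPM in npy1Δ, 172 ± 61.5 to 261 ± 6.95 RPM in the other deletion strains and 5752 ± 696 RPM in WT (SD, n = 3 each). Every deletion-strain library was below every WT library. In −ADPRC libraries the sum was 464 ± 217 RPM in npy1Δ and 451 ± 202 RPM in WT. In npy1Δ 6 genes were lower (9.23% of mRNAs tested), with log2 changes of -3.40 for GDB1, -3.16 for GLC3, -2.65 for GSY2, -2.57 for PGM2, -1.98 for GPH1 and -1.69 for TSL1, where the median over all mRNAs was 0.96. TPS1 (-1.24, adjusted p = 0.0971), TPS2 (-1.12, adjusted p = 0.14), GSY1 (0.02) and NTH1 (0.77) did not pass. In the transcriptome the 6 genes changed by -2.22 for GDB1, -3.77 for GLC3, -2.57 for GSY2, -3.59 for PGM2, -3.69 for GPH1 and -2.34 for TSL1. What part of a captured drop goes with the transcript was not tested. GDB1 was not enriched over −ADPRC libraries in either strain.

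Some of these npy1Δ calls hung on single libraries. Without npy1Δ replicate 1 only 3 genes were called, GDB1 (adjusted p = 0.080), GPH1 (0.076) and TSL1 (0.14) being lost. GDB1 was also lost without WT replicate 1 (0.43), TSL1 without npy1Δ replicate 2 (0.145) or WT replicate 1 (0.053), and GPH1 without npy1Δ replicate 2 (0.050). By pooled reads GLC3 was 14.2-fold lower in npy1Δ than in WT, GSY2 9.87-fold, PGM2 8.96-fold and GPH1 5.87-fold.

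Captured levels of the other 6 strains were compared with WT across runs, so that strain and run cannot be told apart. In each of them 9 genes were lower, all but NTH1, where 14.7% of mRNAs were lower in dxo1Δ, 18.1% in rai1Δ, 15.0% in dxo1Δnpy1Δ, 19.6% in dxo1Δrai1Δ, 14.4% in rai1Δnpy1Δ and 20.6% in dxo1Δrai1Δnpy1Δ. NTH1, with 4 reads in WT, could not be tested in rai1Δnpy1Δ. TPS1 was 6.01-fold to 8.26-fold lower than in WT by pooled reads. GSY1 had no captured read in dxo1Δ or rai1Δ, at least 23.6-fold and 31.4-fold lower than in WT. The GDB1 calls were lost without WT replicate 1, which held 26 of the 29 WT reads, in dxo1Δ (adjusted p = 0.13), rai1Δ (0.18), dxo1Δnpy1Δ (0.14), dxo1Δrai1Δ (0.31) and dxo1Δrai1Δnpy1Δ (0.083), and the TPS1 calls in rai1Δ (0.16), dxo1Δnpy1Δ (0.066) and dxo1Δrai1Δ (0.056). Single deletion-strain libraries also decided GDB1 in rai1Δ (without replicate 1, 0.087) and rai1Δnpy1Δ (without replicate 1, 0.074, or 2, 0.056), and TPS1 in dxo1Δ (without replicate 1, 0.067).

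The captured level of a gene was not simply its transcript level. In npy1Δ the ratio of captured to transcript RPM was 1.48 for PGM2, higher than in 89.6% of 2207 mRNAs, against a median of 0.410. GDB1 (0.0865) and NTH1 (0.113) were the lowest of the 10 there, and the other 7 lay between 0.540 for TPS1 and 0.972 for GPH1. In WT the ratio was 1.40 for PGM2, higher than in 85.2% of 1799 mRNAs, 1.16 for TPS2 and 1.03 for GSY2, against a median of 0.343. In WT it was 0.504 to 0.748 for TPS1, GSY1, GPH1, GLC3 and TSL1, and 0.266 for GDB1. NTH1 stood apart in WT at 0.00953, higher than in only 15.4% of mRNAs, although its transcript was more abundant than 86.5% of them. By an alternative chosen after seeing the data, leaving out WT replicate 1 gave 0.136 for GDB1, 0.330 for TPS1 and 0 for NTH1, whose 4 reads were all in that library, and NTH1 had 0.0143 without either of the others. TPS2 had 0.815 without WT replicate 1, 0.968 without replicate 2 and 1.71 without replicate 3. In npy1Δ GDB1 had 0.0481 without replicate 2 and 0.130 without replicate 3. −ADPRC reads were not subtracted in these ratios.

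**Figure D5:**
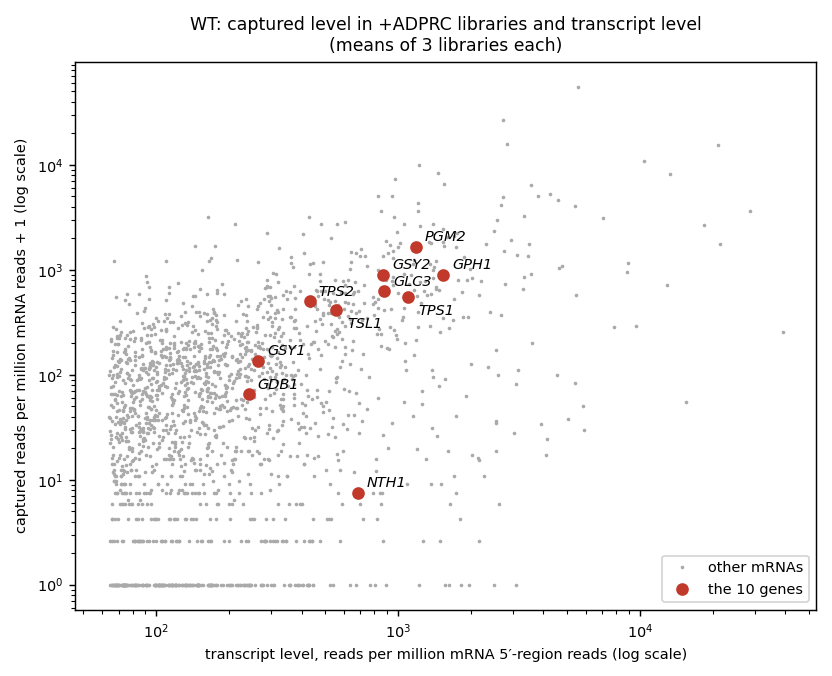
Captured level in WT +ADPRC libraries plus 1 (vertical, RPM) against transcript level in WT (horizontal, RPM), both on log axes, as means of 3 libraries, for the 10 genes in red and other mRNAs with a mean count above 100 in grey. PGM2 and TPS2 lie in the upper part of the cloud (ratios 1.40 and 1.16) and NTH1 near its bottom (0.00953). The TPS2 ratio was higher than in 80.3% of mRNAs, and was 0.815 without WT replicate 1 and 1.71 without replicate 3.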

How the data were processed

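The authors trimmed adapters, set reads of 12 to 17 nt apart, separated rRNA and tRNA reads, aligned the rest with Bowtie to a BY4742 genome and counted reads by strand with HTSeq. They deposited raw counts over mRNA 5′ regions, coding sequences and other RNAs. Other deposited columns hold the authors' own DESeq2 1.4.5 comparisons and were not used, and the 24 fragmented capture libraries were not analysed here. SAMtools 0.1.13 is named in the processing notes.

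All tests were fitted on whole tables with edgeR 4.0.16 (quasi-likelihood, TMM factors, mean normalised count above 1, Benjamini-Hochberg adjusted p below 0.05) in R 4.3.3, each on the libraries of the 2 strains or treatments compared, with DESeq2 1.42.0 as an alternative. Captured levels used mRNA counts only. Pooled folds divide summed reads by TMM-scaled library sizes. Scripts were tested on simulated data. Replicates of a group differed by more than sampling noise (chi-square per degree of freedom of at least 2.91).

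The members and lists were chosen with earlier results of these data known. All 10 members were named, any gene of the pathway list, up to 3 per other list, and the 5 mRNAs most like the members. Gene symbols of the lists matched RefSeq locus tags for 58 of 58 genes. RefSeq is another genome build, so no sequence or coordinate is given, and a planned look at proteins and promoters was not made.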

Additional observations from a re-analysis of the deposited data

Results flagged for a closer look

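In all, 7 differences in capture enrichment between a deletion strain and WT passed the test of the difference itself (edgeR interaction of strain and ADPRC, adjusted p below 0.05). In npy1Δ relative to WT the log2 difference was -8.73 for GLC3 and -4.00 for PGM2. Leaving out each of the 12 libraries in turn kept the GLC3 call 11 times and the PGM2 call 9 times, but neither held with DESeq2 (adjusted p = 0.097 and 0.31), RLE size factors (0.16 and 0.66) or the replicate block (0.11 and 0.062).

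In rai1Δ relative to WT it was -6.22 for GSY1 (SE 2.06, adjusted p = 0.0288), -6.38 for GSY2 (SE 2.10, adjusted p = 0.0273) and -4.22 for TPS1 (SE 1.46, adjusted p = 0.0391). GSY1 had no read in 3 rai1Δ +ADPRC libraries and 2, 0 and 0 in the controls, and GSY2 had 16, 0 and 1 against 2, 0 and 0. The 3 calls were kept 6, 6 and 4 times of 12. GSY1 and GSY2 were lost without rai1Δ −ADPRC replicate 1 (0.9997 each), rai1Δ +ADPRC replicate 2 or 3 (0.11 to 0.13) or WT −ADPRC replicate 1 or 3 (0.050 to 0.061), GSY1 also without rai1Δ +ADPRC replicate 1 (0.27) and GSY2 without WT +ADPRC replicate 1 (0.078). TPS1 was lost without any rai1Δ +ADPRC library, rai1Δ −ADPRC replicate 2 or 3, WT −ADPRC replicate 1 or 2, or WT +ADPRC replicate 1 (0.086 to 0.35).

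In dxo1Δrai1Δnpy1Δ relative to WT it was -4.01 for GSY1 (SE 1.21, adjusted p = 0.0216) and -6.93 for PGM2 (SE 2.24, adjusted p = 0.0349). GSY1 had 0, 2 and 6 reads with ADPRC and 1, 0 and 8 without, and PGM2 had 0, 2 and 5 with and 2, 0 and 0 without. These calls were kept 7 and 8 times of 12. GSY1 was lost without triple-mutant −ADPRC replicate 3 (0.9998), any triple-mutant +ADPRC library (0.069 to 0.17) or WT −ADPRC replicate 1 (0.056), and PGM2 without triple-mutant −ADPRC replicate 1 (0.9997), +ADPRC replicate 1 (0.066) or 2 (0.055), or WT −ADPRC replicate 2 (0.069). Of the 7 differences, that of PGM2 in dxo1Δrai1Δnpy1Δ alone was also called by DESeq2 (adjusted p = 0.0104), and none held with RLE size factors or the replicate block. The median difference over all RNAs was -1.47 in npy1Δ, -0.58 in rai1Δ and -0.18 in dxo1Δrai1Δnpy1Δ. Fitted values of genes with groups at 0 reads depend on the prior count.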

How the results depend on the processing

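The counts of members lower than WT in the transcriptome moved by less than 1.5 times in all 63 combinations of setting and strain, and leaving out each library gave 10 in every strain. Total-count scaling moved the median of all RNAs to 1.5 to 1.91 (main 0.03 to 0.14) and the share of calls that are higher to 85.6% to 86.5% (main 50.8% to 52.9%); in npy1Δ 8 members were then lower, with GSY1 at 0.36 and TPS2 at 0.60. Between mutants, dxo1Δrai1Δnpy1Δ relative to dxo1Δrai1Δ had 1 call, and 0 with DESeq2, total counts or all 24 libraries in a single fit. For dxo1Δrai1Δ relative to dxo1Δ there were 3, and 6 from coding-sequence counts, where 20.7% of all RNAs were higher. For dxo1Δrai1Δnpy1Δ relative to dxo1Δnpy1Δ there were 5, and 3 with DESeq2, and GDB1 turned to 0.035 from coding-sequence counts. Leaving out libraries gave 0 to 1, 2 to 3 and 2 to 4 calls there, 0 to 4 in dxo1Δrai1Δ relative to rai1Δ and 0 to 1 in dxo1Δrai1Δnpy1Δ relative to rai1Δnpy1Δ.

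Of the counts in capture, 19 of 64 moved, and of the differences in enrichment 10 of 21. In dxo1Δ 2 became 1 with edgeR's expression filter (filterByExpr), which left 1 of the 10 to test (76.8% of all RNAs enriched). In rai1Δ 2 became 6 of 6 tested with RLE size factors (87.0% of all RNAs enriched) or total counts (82.1%). The count became 1 at an adjusted p below 0.05 (56.0%), and filterByExpr left 0 of the 10 to test. In dxo1Δnpy1Δ 1 became 3 of 4 tested with DESeq2 (85.3% of all RNAs) and 5 of 5 with RLE (91.0%) or total counts (91.3%). In dxo1Δrai1Δ 3 became 5 of 7 tested with DESeq2 (76.2% of all RNAs) and 8 of 9 with RLE (84.8%) or total counts (85.3%). With filterByExpr 1 of 1 tested was called there (80.8%). In rai1Δnpy1Δ filterByExpr left 0 of the 10 to test. In dxo1Δrai1Δnpy1Δ 4 became 7 of 9 tested with total counts (86.1% of all RNAs) and 1 of 1 with filterByExpr (75.9%). With all 48 libraries in a single fit it became 1 of 10 (49.1%). Leaving out libraries gave 6 to 8 in npy1Δ, 0 to 3 in rai1Δ, 1 to 2 in rai1Δnpy1Δ, 3 to 4 in dxo1Δrai1Δ, 1 to 5 in dxo1Δrai1Δnpy1Δ and 7 to 8 in WT. The differences in enrichment were 0 in npy1Δ and rai1Δ with DESeq2 or RLE, 1 (DESeq2) and 0 (RLE) in dxo1Δrai1Δnpy1Δ and 1 in dxo1Δ with DESeq2, and 1 to 2, 0 to 3 and 0 to 2 without single libraries in npy1Δ, rai1Δ and dxo1Δrai1Δnpy1Δ. Captured levels gave 3 to 8 lower members in npy1Δ without single libraries and 7 to 9 in the other strains. The causes were not tested.

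Same-numbered replicates share only a number: deviations correlated at -0.14 to 0.17 in capture and -0.20 to 0.43 in transcriptome pairs of groups, with every correlation over 0.1 in 0 of 15 and 1 of 28 pairs, and every sample best with its own number in 2 and 4. With the replicate block, capture calls were 0 in rai1Δ, dxo1Δnpy1Δ and dxo1Δrai1Δnpy1Δ, where 33.1%, 24.1% and 31.9% of all RNAs were enriched. Enrichment differences were 0 in every strain, and lower captured levels 3 in npy1Δ. No other count of calls moved past 1.5 times. Depth limits capture: −ADPRC libraries hold 1162 to 78845 mRNA reads.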
